A study of Mus musculus with 48 samples.

Results

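The genes described here make, sense and export cholesterol and make fatty acids. They are 35 protein-coding mouse genes chosen by symbol from the 53345 rows of a splenic T cell RNA-seq series, and 34 of them had values (Tm7sf2, a sterol C14 reductase, had an empty cell in every library). All 34 passed the filter on low counts in each model. The 17 measured sterol enzymes comprise 7 of the mevalonate arm (Acat2, Hmgcs1, Mvk, Pmvk, Mvd, Idi1, Fdps) and 10 that carry squalene to cholesterol (Fdft1, Sqle, Lss, Cyp51, Msmo1, Nsdhl, Hsd17b7, Ebp, Sc5d, Dhcr7). A further 6 control sterol sensing and transfer (Srebf1, Srebf2, Scap, Insig1, Insig2, Stard4), 9 make or desaturate fatty acids (Acly, Acss2, Acaca, Fasn, Elovl6, Scd1, Scd2, Fads1, Fads2) and 2 export sterol (Abca1, Abcg1).

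The study asked how IL-2 strength and the T cell receptor signal act together on regulatory T cells (Tregs). Female C57BL/6 mice aged 8 to 12 weeks, with no disease, were injected intraperitoneally on each of 2 consecutive days with 500 µg of an antibody, which was either an isotype control or one that blocks MHC class II. On the second of those days they received PBS or 25 µg of human IL-2 subcutaneously, and spleens were taken at day 4. IL-2 was given as wild-type (WT) or as 1 of 2 attenuated muteins, H16R and 3x, the latter with 3 substitutions, and each of the 3 molecules was fused to a human Fc. There were 4 Treg libraries in each of the 8 treatment groups, 32 in all, each labelled as its own mouse except that 2 isotype WT libraries (3a and 3b here) carry the same mouse name, and conventional T cells (Tcons) of 2 mice per group were sequenced as 16 more. Tregs are the CD25-bound fraction of a magnetic selection and Tcons its flow-through, so the Treg fraction was chosen on a receptor for IL-2 and not on Foxp3. Per its methods the study stained part of the purified cells for Foxp3 and found it in the large majority of cells in most samples, a measure that was not analysed here.

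Cholesterol is built from acetyl-CoA through mevalonate, isoprenoids, squalene and lanosterol. When sterol is low, SCAP carries the precursor SREBP2 (Srebf2) from the endoplasmic reticulum to the Golgi, where it is cleaved into a transcription factor for the sterol enzymes, whereas INSIG1 and INSIG2 hold SCAP back when sterol is high. SREBP1 (Srebf1) acts in the same way on genes of fatty acid synthesis, and the liver X receptors, which sense oxysterols, drive the exporters Abca1 and Abcg1. T cells that leave rest and divide need new membrane, and mevalonate products are needed for Treg function.

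Promoter sequences are shown because the enzymes are known as targets of SREBP, which binds near sterol elements with a CCAAT box close by. The RefSeq table of promoters, from 250 bases before to 50 after each start on GRCm38.p6, held 27 of the 35 genes. It had no entry for Fdps, Fdft1, Sqle, Stard4, Scd1, Scd2, Fads1 or Abcg1. The letters CCAAT, sought on both strands, were found in 21 of the 27 (77.8%), beside 41.1% of all 27025 genes and 37.4% of all 32851 promoters. The sterol element core CACNCCAC was found for Acat2, Hmgcs1 and Insig1 (7.12% of all genes, 6.24% of promoters), and its longer form TCACNCCAC, which contains the core, for Hmgcs1 alone (1.44% of genes, 1.24% of promoters). The E box CACGTG was found for 6 of the 27 (Hsd17b7, Sc5d, Dhcr7, Scap, Insig1, Abca1), beside 8.09% of all genes and 7.15% of promoters. A stretch of 150 bases near the start is printed 5′ to 3′ on the strand of the gene for the HMG-CoA synthase (Hmgcs1), a decarboxylase (Mvd), a cyclase (Lss) and the fatty acid synthase (Fasn), because these genes moved in different ways below. Capitals mark letters that match CCAAT, its reverse complement ATTGG or TCACNCCAC. The capitals in Fasn include CCAAT and ATTGG overlapping by 2 bases.
Hmgcs1, chr13:119690201-119690350, plus strand: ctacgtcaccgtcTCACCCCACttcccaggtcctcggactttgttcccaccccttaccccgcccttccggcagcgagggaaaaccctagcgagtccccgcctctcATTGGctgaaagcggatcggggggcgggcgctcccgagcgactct
Mvd, chr8:122443423-122443572, minus strand: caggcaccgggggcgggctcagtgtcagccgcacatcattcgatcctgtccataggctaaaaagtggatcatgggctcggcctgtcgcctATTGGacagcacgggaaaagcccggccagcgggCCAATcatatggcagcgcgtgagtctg
Lss, chr10:76531438-76531587, plus strand: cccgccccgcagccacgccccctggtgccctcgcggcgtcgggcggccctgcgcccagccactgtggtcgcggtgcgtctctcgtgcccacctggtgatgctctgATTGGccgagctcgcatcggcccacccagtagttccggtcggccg
Fasn, chr11:120824548-120824697, minus strand: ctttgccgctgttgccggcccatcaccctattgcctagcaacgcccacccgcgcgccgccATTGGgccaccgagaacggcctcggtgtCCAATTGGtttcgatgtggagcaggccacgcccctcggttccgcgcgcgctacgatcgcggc
A match is a description of these letters, and binding was not measured.

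Expected counts per library were 18279780 to 51238377 in Tregs and 31311437 to 51953840 in Tcons. The 6 Treg markers (Foxp3, Il2ra, Ctla4, Ikzf2, Tnfrsf18, Lrrc32) summed to 913 to 1735 FPKM in Tregs and 136 to 561 in Tcons, and all 6 were higher in Tregs. A pair of Treg libraries stood apart: isotype PBS replicate 1 and block WT replicate 1 held 328 and 315 FPKM of 8 B cell markers, against at most 88.8 in the other 30, and 85.6 and 414 FPKM of 9 myeloid markers against at most 54.0. Counts of called members that changed without them are given both ways. Plasma cell markers (Jchain, Sdc1, Tnfrsf17, Mzb1) were also detected in every Treg library and moved with treatment. No list of markers had a member at 0 in all libraries. In these bulk samples, fewer cells of a type and less RNA per cell cannot be told apart.

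In resting Tregs (isotype antibody, PBS) the pathway was expressed at moderate levels. In FPKM, the reads per length of transcript and depth of library, 33 of the 34 genes exceeded 1, 15 exceeded 10 and none reached 100. The highest was Acly, the enzyme that makes cytosolic acetyl-CoA, at 63.1 ± 0.80 FPKM (SD, n = 4), followed by Srebf2 at 56.7 ± 2.62 and Insig1 at 29.4 ± 1.69. Among the enzymes of the sterol route the highest were Fdps (21.4 ± 2.48), which makes farnesyl pyrophosphate, and Ebp (18.5 ± 2.34), the sterol isomerase, whereas Hsd17b7 was lowest at 2.30 ± 0.189. Fads2, the delta-6 desaturase, was the only member below 1, at 0.312 ± 0.121 FPKM. Neighbours in this order often overlapped: Fasn, Scap and Abcg1, at 27.7 ± 2.02, 26.6 ± 0.564 and 25.8 ± 1.43 FPKM, did not differ beyond their spread.

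IL-2 changed many of these genes in isotype-treated mice, in both directions. Gene values from here on are CPM, counts per library size scaled by TMM, while marker sums are given in FPKM. Changes are log2 fold changes ± SE from edgeR's quasi-likelihood test, called at a Benjamini-Hochberg adjusted p under 0.1 over all genes tested. Against PBS, WT IL-2 raised 8 of the 34 genes and lowered 14, where 26% of the 12392 tested genes rose and 26.2% fell. H16R raised 11 and lowered 14 (31.4% and 32.8% of all genes). 3x raised 14 and lowered 8 (31.3% and 32.3%). Scaled by total counts in place of TMM, H16R raised 7 and lowered 16. With the 2 libraries high in B cell markers left out, the higher and lower genes were 7 and 14 for WT, 12 and 14 for H16R and 17 and 8 for 3x. Markers of cell types changed in the same comparisons. With each molecule all 6 Treg and all 4 CD4 T cell markers were higher and all 8 B cell and all 4 dendritic cell markers lower. For WT, H16R and 3x, 3, 4 and 4 of 4 plasma cell, 4, 7 and 7 of 8 tested myeloid and 2, 3 and 3 of 4 CD8 T and NK cell markers were lower, and 1 myeloid marker was higher with each mutein. What these cells contributed was not tested. The same PBS samples serve the 3 comparisons.

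**Figure D1:**
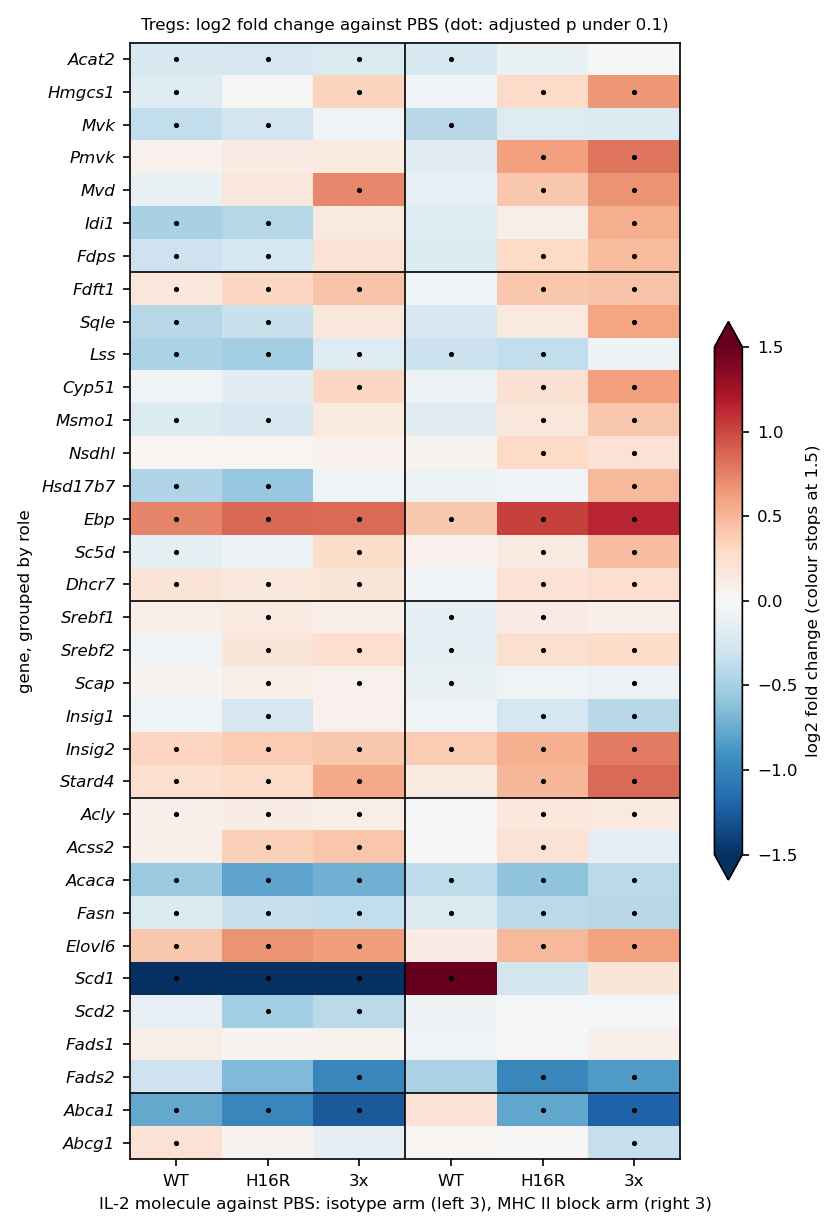
Log2 fold change of each of the 34 measured genes (rows, by role) against PBS in Tregs for WT, H16R and 3x, in the isotype arm (left 3 columns) and the MHC II block arm (right 3); red is higher, blue is lower, colour stops at 1.5 and dots mark an adjusted p under 0.1. In the upper 2 blocks, 10 of the 17 sterol enzymes were called lower for WT in the isotype arm (26.2% of all genes). For 3x in the block arm 14 of 17 were called higher (34.7% of all genes).

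Among the sterol enzymes more were called lower than higher with WT and H16R, and more higher than lower with 3x. WT raised 3 and lowered 10 of the 17 (median log2 fold change -0.18), with H16R 3 rose and 8 fell (-0.16), and with 3x 7 rose and 2 fell (0.17). The median over all tested genes was -0.01 in each comparison. Of all genes 26% rose and 26.2% fell with WT, 31.4% and 32.8% with H16R, and 31.3% and 32.3% with 3x. Without the 2 libraries high in B cell markers the sterol enzyme counts were 2 and 10, 4 and 8, and 9 and 2. Scaled by total counts they were 2 and 10, 2 and 10, and 7 and 2. Idi1, which isomerises isopentenyl pyrophosphate, was 23.7, 31.8, 25.6 and 29.0 CPM in the PBS libraries, 20.6, 20.2, 19.5 and 17.9 with WT, 20.4, 18.9, 24.0 and 18.1 with H16R and 32.4, 25.0, 26.3 and 35.6 with 3x. All WT libraries were below all PBS libraries, while the 3x libraries overlapped them. The change was -0.49 ± 0.13 with WT (adjusted p = 0.00272), -0.42 ± 0.13 with H16R (0.00586) and 0.13 ± 0.13 with 3x (0.378). Sqle, the squalene epoxidase, followed the same order, at -0.42 ± 0.12, -0.33 ± 0.12 and 0.17 ± 0.12 (adjusted p = 0.00599, 0.0194 and 0.214).

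Hmgcs1, which makes HMG-CoA, was 32.4, 37.3, 36.2 and 36.5 CPM with PBS, 31.3, 30.9, 34.5 and 28.8 with WT and 46.4, 42.7, 40.8 and 47.7 with 3x. The 3x libraries were all above the PBS libraries, with a change of 0.33 ± 0.09 (adjusted p = 0.00164). WT gave -0.18 ± 0.09 (adjusted p = 0.0890), a call kept in 20 of 32 fits that left out 1 library, and H16R 0.02 ± 0.09 (0.868). Cyp51, the lanosterol demethylase, rose with 3x (0.31 ± 0.09, adjusted p = 0.00572) and was -0.05 ± 0.09 and -0.16 ± 0.09 with WT and H16R, neither called. Mvd rose with 3x by 0.72 ± 0.13 (adjusted p = 3.92e-05), from 13.3 to 19.8 CPM with PBS to 24.3 to 31.4. Lss, which closes the ring of lanosterol, fell with all 3 molecules, by 0.47, 0.52 and 0.20 on the log2 scale. Hsd17b7, a sterol ketoreductase, fell by 0.45 with WT and 0.56 with H16R and was -0.07 with 3x.

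Ebp, Fdft1 and Dhcr7 rose with every molecule, Ebp by most. Ebp was 35.5, 31.4, 35.9 and 27.1 CPM with PBS, 58.7, 51.9, 56.1 and 50.5 with WT, 61.3, 56.0, 64.6 and 55.6 with H16R, and 64.3, 51.0, 59.5 and 58.1 with 3x. No treated library overlapped the PBS libraries, and the changes were 0.73 ± 0.09, 0.87 ± 0.09 and 0.84 ± 0.09 (adjusted p = 1.38e-07, 2.79e-09 and 5.00e-09). Fdft1, the squalene synthase, rose with all 3 as well, by 0.17, 0.31 and 0.43. Dhcr7, the last reductase of the route, rose by 0.19, 0.16 and 0.18. Not all of these calls held in each alternative. With WT 2 sterol enzymes were called higher without the 2 libraries high in B cell markers, in place of 3. Scaled by total counts 2 were called higher with WT and 2 with H16R.

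Among the genes of sterol sensing, Insig2 rose with all 3 molecules (0.33, 0.38 and 0.41). So did Stard4, a sterol transfer protein, by 0.24 ± 0.07, 0.29 ± 0.07 and 0.57 ± 0.07. Srebf2 was 302, 290, 285 and 276 CPM with PBS, 320, 320, 351 and 313 with H16R and 344, 329, 333 and 355 with 3x. Both muteins raised it above every PBS library (0.18 ± 0.06 and 0.25 ± 0.06, adjusted p = 0.0116 and 8.60e-04), and WT gave -0.05 ± 0.06 (0.518). Srebf1 changed by 0.10, 0.13 and 0.08, called for H16R alone (adjusted p = 0.0288). Insig1 fell with H16R (-0.25 ± 0.07, adjusted p = 0.00198) and was -0.06 ± 0.07 with WT and 0.07 ± 0.07 with 3x.

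Of the 9 genes of fatty acid synthesis and desaturation 2 rose and 3 fell with WT, 3 rose and 4 fell with H16R, and 3 rose and 5 fell with 3x, counts that on so few genes lie near the shares of all genes (26% and 26.2%, 31.4% and 32.8%, and 31.3% and 32.3%). Acaca, the acetyl-CoA carboxylase, was 43.5 to 53.2 CPM with PBS, 28.3 to 37.6 with WT, 26.5 to 29.2 with H16R and 27.3 to 31.3 with 3x, without overlap between PBS and any IL-2 group. It fell by 0.55, 0.79 and 0.72 on the log2 scale (adjusted p = 1.62e-06, 1.50e-09 and 8.94e-09). Fasn, the fatty acid synthase, was 236, 230, 234 and 269 CPM with PBS and 186, 190, 190 and 180 with 3x, and fell by 0.20, 0.33 and 0.37. Elovl6, which lengthens palmitate, rose instead (0.41 ± 0.08, 0.68 ± 0.08 and 0.62 ± 0.07), from 17.9 to 22.0 CPM with PBS to 24.4 to 28.6, 30.8 to 35.0 and 29.0 to 33.1. Scd2, a stearoyl-CoA desaturase, fell with H16R and 3x (-0.51 ± 0.08 and -0.41 ± 0.08) and was -0.12 ± 0.07 with WT. Acly rose slightly with all 3 (0.08, 0.11 and 0.10), Acss2, an acetyl-CoA synthetase, with both muteins (0.36 and 0.42), and Fads1, the delta-5 desaturase, was not called for any molecule.

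Scd1, the other desaturase of stearate, depended on a library that stood apart. It was 82.7 CPM in isotype PBS replicate 1 and 9.65, 7.11 and 12.2 in the other PBS libraries, beside 1.92 to 6.71 with WT, 1.05 to 1.29 with H16R and 1.16 to 2.23 with 3x. The PBS libraries lay above all IL-2 libraries also without replicate 1. The changes were -2.91 ± 0.77, -4.62 ± 0.88 and -4.13 ± 0.84 over all libraries, and -1.32, -3.04 and -2.54 without the 2 libraries high in B cell markers (adjusted p = 0.0172, 8.85e-06 and 5.33e-05). Summed B cell markers fell across the same groups, from 71.4 to 328 FPKM with PBS to 33.6 to 54.0, 20.8 to 26.0 and 19.1 to 23.4, with all 8 markers called lower for each molecule. Plasma cell markers went from 1087 to 1321 FPKM to 460 to 555, 135 to 317 and 58.1 to 127. Their part in the Scd1 values was not tested.

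The exporter Abca1 fell with every molecule. It was 28.7, 29.3, 27.1 and 37.7 CPM with PBS, 17.1, 20.3, 16.8 and 17.5 with WT, 15.1, 15.8, 11.7 and 19.5 with H16R and 9.88, 14.9, 15.4 and 10.5 with 3x. Each IL-2 library was below each PBS library, and the changes were -0.77 ± 0.20, -0.98 ± 0.21 and -1.26 ± 0.21 (adjusted p = 0.00291, 1.85e-04 and 8.10e-06). Abcg1 did not follow it: it rose with WT (0.22 ± 0.08, adjusted p = 0.0369) and was 0.05 ± 0.08 and -0.15 ± 0.08 with the muteins.

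The molecules were also compared with each other at the same dose and day. In isotype-treated mice, H16R against WT raised 3 and lowered 4 of the 34 genes (8.87% and 9.76% of all genes), and no sterol enzyme was called by edgeR or DESeq2, with 2 higher at an unadjusted p under 0.05 in either. The 95% intervals of that difference were -0.19 to 0.32 for Idi1, -0.16 to 0.33 for Sqle and -0.29 to 0.08 for Cyp51. The count of 7 was 3 without isotype WT replicate 2 and 4 without isotype WT replicate 3b or isotype H16R replicate 1. Called genes were Srebf2 (0.23 ± 0.06), Elovl6 (0.27 ± 0.07), Acss2 (0.28 ± 0.10), Scd2 (-0.38 ± 0.07), Acaca (-0.24 ± 0.08), Insig1 (-0.19 ± 0.06) and Fasn (-0.13 ± 0.05). 3x against WT raised 16 and lowered 5 (16.9% and 17.7%), and 12 of the 17 sterol enzymes were higher, with a median of 0.35 beside 0.81 ± 0.13 for Mvd, 0.62 ± 0.12 for Idi1, 0.59 ± 0.12 for Sqle, 0.54 ± 0.12 for Fdps and 0.51 ± 0.08 for Hmgcs1. 3x against H16R raised 12 genes (5.76%), of which 10 were sterol enzymes, Idi1 by 0.56 ± 0.12 and Mvd by 0.54 ± 0.13. None was called lower (5.77%), with 1 lower at an unadjusted p under 0.05 in edgeR and in DESeq2. Leaving out the 2 libraries high in B cell markers gave 3 and 5 for H16R against WT and 16 and 6 for 3x against WT. Of 10 dividing-cell markers 7 were higher and 1 lower for 3x against WT and 8 higher for 3x against H16R, and all 4 plasma cell markers were lower in each of the 3 comparisons. Lower markers also included 3 of 4 dendritic cell, 2 of 4 CD8 T and NK cell and 2 of 10 dividing-cell markers for H16R against WT, all 4 tested erythroid, 3 of 8 B cell and 2 of 4 CD4 T cell markers for 3x against WT, where 2 Treg markers were higher and 2 lower, and 2 of 4 CD4 T cell markers for 3x against H16R. What these cells contributed was not tested.

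**Figure D2:**
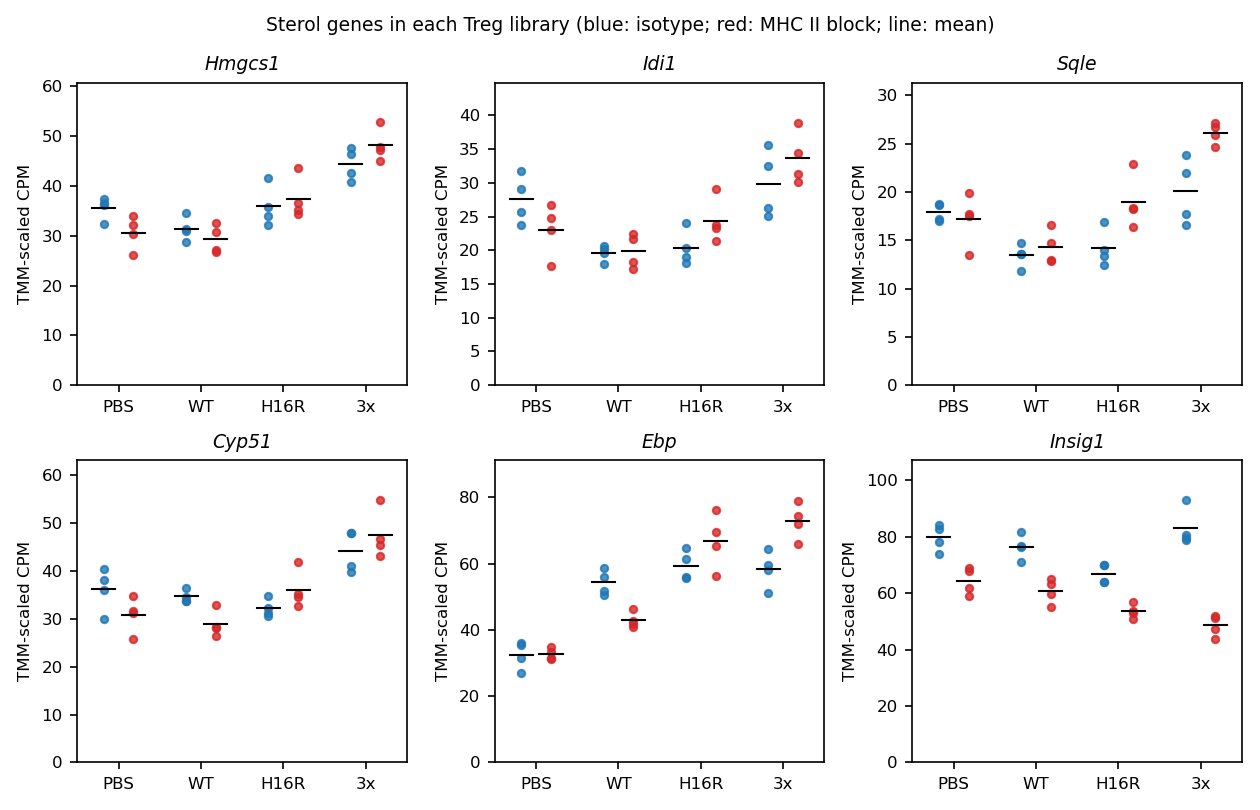
TMM-scaled CPM of 6 sterol genes in each Treg library (points; lines are group means, n = 4) for PBS, WT, H16R and 3x, with isotype in blue and MHC II block in red. Hmgcs1, Idi1, Sqle and Cyp51 have their highest group means with 3x under block, Ebp rises with every molecule, and Insig1 is lower under block than under isotype in each treatment.

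MHC II blockade limits what the T cell receptor can engage and was used to ask how far the IL-2 response needs that signal. By itself, in PBS-treated mice, it raised 2 and lowered 5 of the 34 genes (6% and 8.13% of all genes), or 3 and 4 scaled by total counts. Fads2 rose by 1.99 ± 0.38 and Elovl6 by 0.21 ± 0.08, while Scd1, Hsd17b7, Insig1, Scd2 and Sc5d fell. Scd1 was 82.7 CPM in isotype PBS replicate 1 and 7.11 to 12.2 in the others, against 2.53 to 7.81 under block. Markers called lower were 6 of 8 B cell, 3 of 8 tested myeloid, 1 of 4 CD8 T and NK cell and 1 of 10 dividing-cell markers. Called higher were 1 of 4 CD4 T cell and 1 of 4 tested erythroid markers. The part of these cells was not tested. Without the 2 libraries high in B cell markers 2 rose and 9 fell, and with only these 2 groups in the model 2 rose and 2 fell. Leaving out isotype PBS replicate 2 left 1 higher and 3 lower.

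Under blockade, WT IL-2 raised 3 and lowered 8 genes against PBS (21.9% and 13.7% of all genes). With H16R 18 rose and 6 fell (32.7% and 33.8%), and with 3x 19 rose and 7 fell (34.7% and 38.3%). Scaled by total counts, 3 rose and 12 fell with WT and 13 rose and 9 fell with H16R, and without the 2 libraries high in B cell markers 4 rose and 10 fell with WT. With WT all 8 tested myeloid, all 4 plasma cell, 4 of 8 B cell and 3 of 4 CD8 T and NK cell markers were also higher. So were 3 of 6 Treg, 2 of 4 dendritic cell and 2 of 4 tested erythroid markers. With each mutein all 6 Treg, all 4 CD4 T cell and 3 of 4 CD8 T and NK cell markers were higher, and 1 CD8 T and NK cell marker was lower. Dendritic cell markers were 2 higher and 2 lower with each mutein, and 1 of 8 B cell markers was lower. Plasma cell markers were lower for 1 with H16R and 2 with 3x, and myeloid markers higher for 1 and 2. The part of these cells in the counts was not tested. Of the 17 sterol enzymes, WT raised 1 and lowered 3 (median -0.12), H16R raised 11 and lowered 1 (0.22), and 3x raised 14 (0.47) with none lower at an adjusted p under 0.1 or at an unadjusted p under 0.05, in edgeR or DESeq2. Scaled by total counts the sterol enzymes counted 1 higher and 6 lower for WT, 8 and 3 for H16R and 14 and 1 for 3x. Without the 2 libraries the counts were 1 and 4 for WT, 11 and 1 for H16R and 14 higher for 3x. The medians over all tested genes were 0.02, -0.02 and -0.04 with TMM, which centres them near 0, and -0.03, -0.08 and -0.07 scaled by total counts.

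Hmgcs1 under block was 33.9, 30.3, 26.2 and 32.2 CPM with PBS, 27.2, 32.6, 30.8 and 26.7 with WT, 34.4, 36.5, 35.2 and 43.6 with H16R and 52.9, 47.3, 47.8 and 45.1 with 3x. Both mutein groups were above all PBS libraries, and 3x was above H16R. The changes were -0.04 ± 0.09, 0.29 ± 0.09 and 0.65 ± 0.09 (adjusted p = 0.750, 0.00521 and 1.56e-07). With 3x, Pmvk, the phosphomevalonate kinase, rose by 0.80 ± 0.10, Mvd by 0.68 ± 0.13, Cyp51 by 0.62 ± 0.09, Sqle by 0.60 ± 0.12 and Idi1 by 0.54 ± 0.13. Ebp rose by 0.41 ± 0.09 with WT, 1.03 ± 0.09 with H16R and 1.14 ± 0.09 with 3x. Lss was lower with WT (-0.32 ± 0.08) and H16R (-0.37 ± 0.08) and was -0.08 with 3x.

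Stard4 rose with H16R (0.50 ± 0.07) and 3x (0.84 ± 0.07), and Insig2 with all 3 molecules (0.38, 0.54 and 0.78). Srebf2 fell with WT (-0.15 ± 0.06, adjusted p = 0.0707) and rose with H16R (0.24 ± 0.06) and 3x (0.27 ± 0.06), and Srebf1 fell with WT (-0.15 ± 0.05), rose with H16R (0.12 ± 0.05) and was 0.07 ± 0.05 with 3x. Insig1 fell with both muteins (-0.27 ± 0.07 and -0.42 ± 0.07). Acaca fell by 0.39, 0.60 and 0.40 and Fasn by 0.22, 0.40 and 0.42, and Elovl6 rose with H16R and 3x (0.48 and 0.60). Abca1 was 0.21 ± 0.20 with WT (adjusted p = 0.446) and fell with the muteins (-0.78 ± 0.21 and -1.21 ± 0.21), and Abcg1 fell with 3x (-0.35 ± 0.08).

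Dividing-cell markers also changed with treatment. The 10 markers (Mki67, Top2a, Ccnb1, Ccnb2, Cdk1, Birc5, Aurka, Pcna, Mcm2, Mcm5) summed to 270 to 289 FPKM in block PBS, 276 to 296 with WT, 327 to 387 with H16R and 408 to 561 with 3x, and 4, 7 and 8 of the 10 were called higher against PBS, with 2 lower for WT. In isotype-treated mice they summed to 274 to 310 with PBS, 269 to 329 with WT, 257 to 299 with H16R and 314 to 431 with 3x, with 6, 7 and 7 called higher and 3, 3 and 2 lower. No marker was at 0 in all libraries, and the part of dividing cells in the sterol enzyme values was not tested.

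The same molecules were compared under blockade. H16R against WT raised 20 and lowered 5 genes (25.5% and 32% of all genes), with 12 sterol enzymes higher (median 0.30), among them Pmvk (0.78 ± 0.10), Ebp (0.62 ± 0.08), Mvd (0.53 ± 0.13), Fdps (0.51 ± 0.12) and Fdft1 (0.45 ± 0.08). 3x against WT raised 23 and lowered 5 (30% and 38.7%). Of the 17 sterol enzymes 16 were higher in edgeR, by a median of 0.58, the exception being Mvk at 0.22. DESeq2 called all 17 higher. Pmvk was 0.96 ± 0.10 higher, Sqle 0.84 ± 0.12, Mvd 0.80 ± 0.13, Ebp 0.73 ± 0.08 and Idi1 0.73 ± 0.12, whereas Abca1 was lower (-1.43 ± 0.21). 3x against H16R raised 11 and lowered 2 (12.7% and 12.5%). Of these, 8 were sterol enzymes, led by Hsd17b7 (0.52 ± 0.11), Idi1 (0.46 ± 0.12) and Sqle (0.45 ± 0.12), and the 2 lower genes were Abcg1 (-0.36 ± 0.08) and Acss2 (-0.34 ± 0.10). Marker genes moved in the same comparisons. Against WT under block, 8 of 10 dividing-cell and 5 of 6 Treg markers were higher with H16R, and 9 of 10 and 4 of 6 with 3x. All 8 B cell, all 4 plasma cell and 7 of 8 tested myeloid markers were lower with each mutein. For 3x against H16R, 9 of 10 dividing-cell markers were higher. Leaving out the 2 libraries high in B cell markers gave 17 higher and 4 lower genes for H16R against WT, 11 of the higher ones sterol enzymes, and 23 and 4 for 3x against WT, with 16 sterol enzymes. The part of these markers' cells was not tested.

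Comparing the antibodies within a molecule, blockade lowered 11 and raised 4 genes with WT (15.3% and 18.2% of all genes). It raised 10 and lowered 3 with H16R (15.4% and 15.2%) and raised 11 and lowered 5 with 3x (27.2% and 26.9%), or 16 and 4 with 3x scaled by total counts. With WT all 6 Treg markers and all 4 CD4 T cell markers were also lower under block, and 8 of 8 B cell, 4 of 4 plasma cell, 8 of 8 tested myeloid and 4 of 4 dendritic cell markers were higher. The Treg markers summed to 1532 to 1735 FPKM under isotype and 913 to 1220 under block, and without the 2 libraries high in B cell markers 2 genes rose and 9 fell. With the muteins 9 of 10 dividing-cell markers were higher under block (1 lower with 3x), as were all 4 plasma cell, 4 of 8 tested myeloid, 3 of 4 dendritic cell and 3 of 4 CD8 T and NK cell markers, while 2 of 6 Treg markers were lower with H16R and 3 lower and 1 higher with 3x. Removing the 2 libraries gave 12 and 3 genes with H16R and 13 and 5 with 3x. The part of these cells in the counts was not tested. Insig1, whose protein holds SCAP back when sterol is plentiful and whose gene is itself a target of SREBP, fell in every treatment. It was 73.9 to 84.4 CPM in isotype PBS against 59.0 to 69.0 in block PBS, 71.2 to 81.8 against 55.2 to 65.2 with WT, 63.9 to 70.1 against 51.0 to 56.9 with H16R, and 78.8 to 93.2 against 43.7 to 52.0 with 3x. None of these 4 pairs of groups overlapped, and the changes were -0.31 ± 0.07, -0.31 ± 0.06, -0.33 ± 0.07 and -0.80 ± 0.07 (adjusted p = 0.00322, 6.34e-04, 9.49e-04 and 2.86e-10). Pmvk rose under block with H16R (0.60 ± 0.10) and 3x (0.76 ± 0.10), from 15.5 to 18.7 and 15.0 to 17.5 CPM to 23.0 to 28.5 and 24.2 to 30.7. With WT it was 15.4 to 16.3 CPM under isotype and 12.8 to 16.6 under block (-0.12 ± 0.10, adjusted p = 0.423).

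Fads2 rose under blockade in each treatment, from levels near the floor. Its expected counts were 5 to 21 per isotype Treg library and 23 to 110 per block library, and the CPM went from 0.149 to 0.599 to 0.649 to 2.83. Each block group lay above its isotype group, by 1.99 ± 0.38, 1.83 ± 0.37, 1.67 ± 0.39 and 2.13 ± 0.39 for PBS, WT, H16R and 3x (adjusted p = 0.00106, 4.63e-04, 0.00370 and 7.46e-05). Tcons held 73 to 426 counts. B cell markers were lower for 6 of 8 in block PBS and higher for 8, 2 and 4 of 8 with WT, H16R and 3x, and plasma cell markers were higher for 4 of 4 with each molecule. Their part in the Fads2 change was not tested. Against PBS under block, Fads2 fell with H16R (-0.98 ± 0.34) and 3x (-0.85 ± 0.34). Under isotype it fell with 3x (-0.98 ± 0.43, adjusted p = 0.0554), a call lost without the 2 libraries high in B cell markers (-0.79, adjusted p = 0.187), whereas WT under block was then called lower (-0.78, adjusted p = 0.0810).

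Scd1 under block was 63.8 CPM in WT replicate 1 and 4.80 to 5.82 in the other WT libraries, against 2.53 to 7.81 with PBS. The rise with WT (2.30 ± 0.77, adjusted p = 0.0258) was 0.41 without the 2 libraries (0.524). The same removal took the block against isotype difference with WT from 2.41 to 0.52 (0.430), and H16R and 3x against WT under block from -2.57 and -2.12 to -0.69 and -0.23 (0.212 and 0.661). It brought the block against isotype differences with H16R and 3x past the threshold, at 1.55 and 1.51 (0.0197 and 0.00677), and those of H16R and 3x against WT under isotype, at -1.72 and -1.22 (0.0144 and 0.0388). Abca1 with WT was 0.75 ± 0.20 higher under block than under isotype, and 0.60 without the 2 libraries (0.0356).

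**Figure D3:**
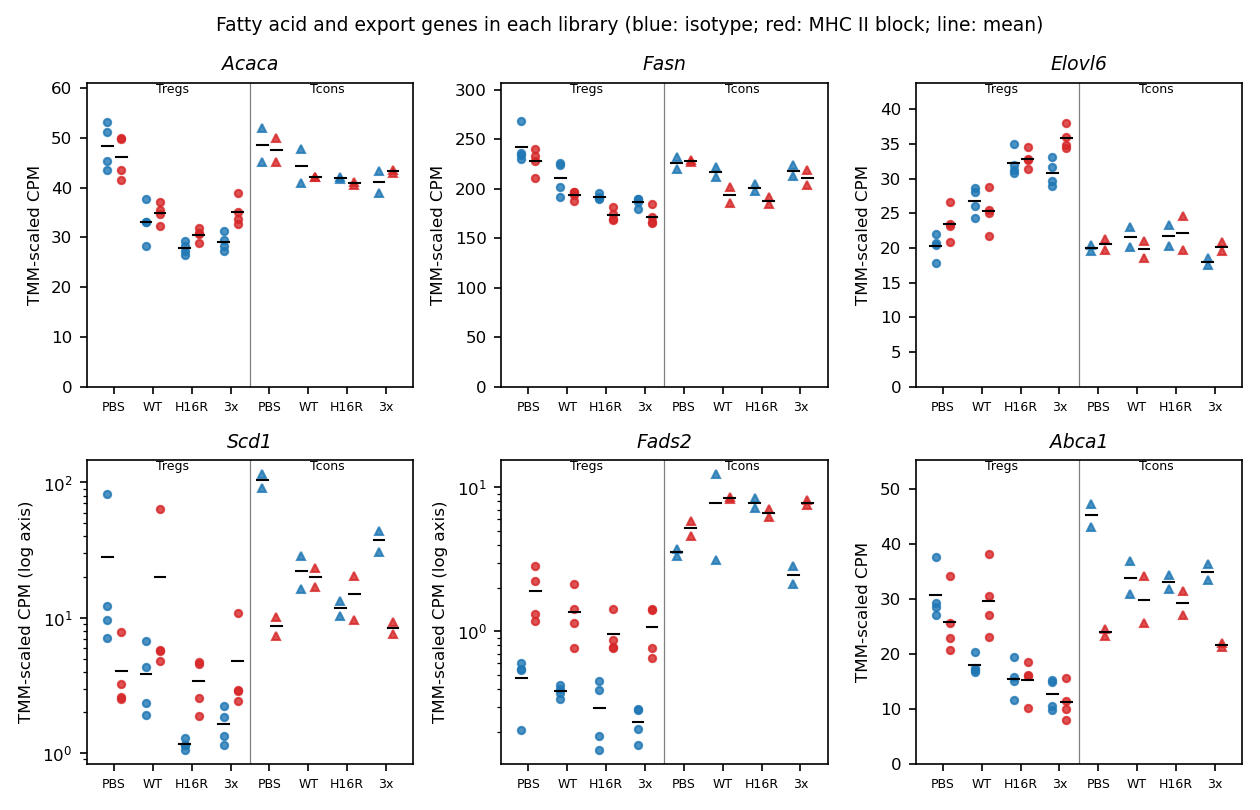
TMM-scaled CPM of 6 fatty acid and export genes in each library (circles Tregs, triangles Tcons; blue isotype, red MHC II block; lines are group means), with a log axis for Scd1 and Fads2. Acaca and Fasn fall with IL-2 in Tregs, Scd1 shows a Treg library at 82.7 and another at 63.8 CPM, and Fads2 in Tregs, at up to 2.83 CPM, overlaps Tcons at the isotype 3x libraries (2.12 and 2.82).

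Whether a molecule's effect differed between antibodies was tested directly, as the response under block minus that under isotype. For WT 2 genes were higher and 5 lower (11.7% and 7.98% of all genes): Scd1 and Abca1 (0.98 ± 0.28) against Ebp, Elovl6, Srebf1 (-0.25 ± 0.07), Dhcr7 and Scap. For H16R 11 were higher and 1 lower (10.6% and 8.47%), and for 3x 13 higher and 3 lower (20.3% and 18.7%). Sterol enzymes made up 9 and 8 of the higher genes (median difference over the 17 of 0.27 and 0.25). The counts without the 2 libraries high in B cell markers were 4 and 5 for WT, 12 and 1 for H16R and 13 and 3 for 3x. All 8 B cell and all 4 plasma cell markers were higher in each of these differences, as were 8, 6 and 7 of 8 tested myeloid and 0, 4 and 8 of 10 dividing-cell markers for WT, H16R and 3x, and 4, 3 and 3 of 6 Treg markers were lower. The part of these cells was not tested. Fdps (0.57 ± 0.17), Hsd17b7 (0.52 ± 0.15), Idi1 (0.51 ± 0.18), Pmvk (0.50 ± 0.14) and Sqle (0.48 ± 0.17) differed for H16R. For 3x these were Pmvk (0.66 ± 0.14), Hsd17b7 (0.55 ± 0.15), Sqle (0.42 ± 0.17), Idi1 (0.41 ± 0.18) and Hmgcs1 (0.32 ± 0.12), while Insig1 (-0.49 ± 0.09), Acss2 (-0.55 ± 0.14) and Scap (-0.15 ± 0.04) went the other way. Each difference also holds the PBS groups, where Idi1 was 27.5 ± 3.59 CPM (SD, n = 4) under isotype and 23.0 ± 3.92 under block (-0.26 ± 0.13, adjusted p = 0.220). The H16R count fell from 12 to 7 without block PBS replicate 3 or block H16R replicate 4. The 3x count fell from 16 to 10 without block 3x replicate 1, and the WT count from 7 to 4 without block PBS replicate 2.

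Tregs and Tcons of the same 16 mice were compared in a model that blocks on the mouse. These mice come from all 8 treatment groups, so each difference takes PBS and IL-2 mice together. In isotype PBS alone, the Treg and Tcon group means were 20.3 and 19.9 CPM for Elovl6, 32.5 and 29.0 for Ebp and 17.9 and 17.0 for Sqle. They were 31.2 and 23.6 for Fdft1 and 36.1 and 30.6 for Cyp51. Tregs were higher in 17 and lower in 11 of the 34 genes (41.4% and 40.6% of 12844 tested genes), or 15 and 15 scaled by total counts. Of the sterol enzymes 10 were higher, led by Ebp (0.49 ± 0.03), Fdft1 (0.47 ± 0.02) and Cyp51 (0.42 ± 0.03), and 3 were lower (Lss, Acat2 and Sqle, at -0.38, -0.27 and -0.09). Insig1 was 0.52 ± 0.02 higher (adjusted p = 9.22e-12) and Srebf2 0.20 ± 0.03, while Srebf1 was 0.01 ± 0.02. Of the 9 genes of fatty acid synthesis 7 were lower, with Elovl6 higher (0.46 ± 0.03) and Acly at 0.00. The difference was -3.12 ± 0.14 for Fads2, -2.15 ± 0.26 for Scd1, -0.69 ± 0.06 for Abca1, -0.64 ± 0.02 for Acss2 and -0.53 ± 0.04 for Fads1. Without the 2 mice whose Treg libraries stood apart 16 genes were higher and 11 lower (9 and 3 of the sterol enzymes), and Fads2 and Scd1 differed by -3.22 and -2.59. All 8 B cell, 4 plasma cell, 4 dendritic cell, 5 erythroid and 4 CD8 T and NK cell markers and 7 of 9 myeloid markers were also lower in Tregs (1 myeloid marker was higher), with B cell markers at 19.1 to 328 FPKM in Tregs and 73.8 to 496 in Tcons, and their part in these differences was not tested.

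**Figure D4:**
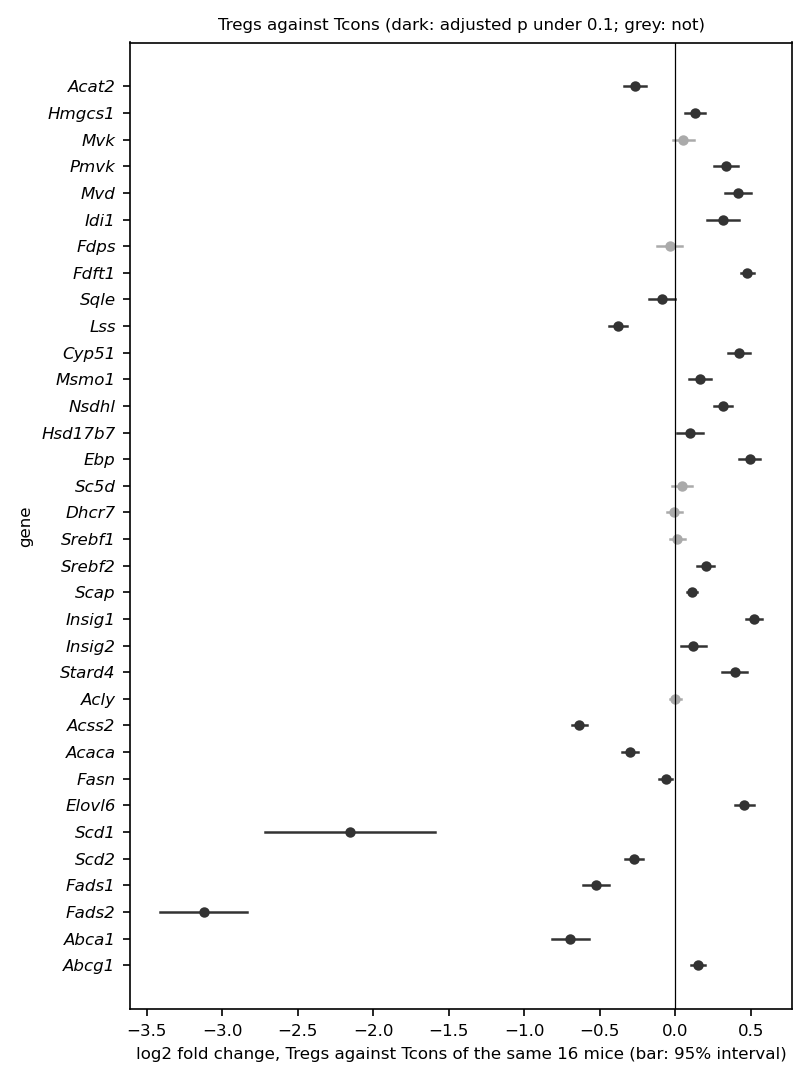
Log2 fold change of each gene in Tregs against Tcons of the same 16 mice, taken over all 8 treatment groups, with 95% intervals. Dark points have an adjusted p under 0.1. Fads2 (-3.12) and Scd1 (-2.15) lie far to the left, and Insig1 (0.52), Ebp (0.49) and Fdft1 (0.47) farthest to the right.

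In Tcons, with 16 libraries, at most 9 of the 34 genes were called for a molecule. In a model with IL-2 and antibody as terms, WT raised 2 and lowered 4 (14.8% and 12.4% of 12526 tested genes), with H16R 3 rose and 6 fell (16.2% and 14.9%), with 3x 2 rose and 2 fell (4.71% and 5.17%; 2 and 1 scaled by total counts), and blockade raised 3 and lowered 3 (13.8% and 15.1%). With 2 mice per group these counts moved easily, and WT gave 11 calls in DESeq2. Of the markers, all 4 plasma cell, all 5 erythroid and 7 of 10 dividing-cell markers were higher with WT and with H16R, 4 of 8 B cell markers were lower with H16R, and blockade raised 8 of 10 dividing-cell and 5 of 9 myeloid markers and lowered 6 of 8 B cell markers. Treg markers were higher for 3, 4 and 2 of 6 with WT, H16R and 3x, and lower for 3 with blockade. Isotype WT replicate 2 held 561 FPKM of Treg markers and replicate 1 held 335 FPKM of erythroid markers, each the highest of the 16 Tcon libraries. The part of these cells was not tested. Insig1 fell with each molecule (-0.33 ± 0.09, -0.62 ± 0.09 and -0.41 ± 0.09). It was 56.4 and 59.7 CPM in isotype PBS Tcons and 33.2 and 36.8 with H16R. Ebp rose with WT (0.34 ± 0.06) and H16R (0.40 ± 0.06) and was 0.15 with 3x. Blockade raised Pmvk (0.26 ± 0.05) and lowered Abca1 (-0.49 ± 0.11) and Scd1 (-1.35 ± 0.50). The Scd1 levels were 115 and 91.7 CPM in isotype PBS Tcons and 7.38 to 44.0 in all others, and the B cell markers were 468 to 496 FPKM in the same libraries and 73.8 to 233 in the others, and the link of these values was not tested.

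The response in Tregs minus that in Tcons was tested in the paired model. That model lets the difference between cell types vary with molecule and with antibody, but not with their combination. Each response therefore takes the isotype and block arms together. For WT 3 genes were higher and 8 lower (12.2% and 9.3% of all genes), for H16R 13 and 11 (24.4% and 21.7%), and for 3x 15 and 7 (26.8% and 25.3%). Scaled by total counts, H16R gave 8 higher and 13 lower and 3x 11 and 11, so the balance of directions depends on the scaling. Without the 2 mice that stood apart H16R gave 8 and 10 and 3x 13 and 8, and without the mouse in the model H16R gave 7 and 6. All 4 CD4 T cell markers responded more in Tregs with each molecule. For 3x 7 of 10 dividing-cell markers responded more and 1 less, and all 4 plasma cell, 6 of 9 myeloid and 5 of 8 B cell markers less. For H16R all 4 plasma cell, all 5 erythroid and all 4 dendritic cell markers responded less. For WT 3 of 10 dividing-cell, 3 of 5 erythroid, 3 of 4 CD8 T and NK cell and 2 of 6 Treg markers responded less. So did 2 of 4 plasma cell, 2 of 4 dendritic cell and 2 of 9 myeloid markers. The part of these cells was not tested. With 3x the sterol enzymes responded more in Tregs for 10 of 17 and less for 3 (6 and 3 scaled by total counts, 8 and 3 without the 2 mice that stood apart). They were led by Ebp (0.81 ± 0.09), Cyp51 (0.61 ± 0.10), Pmvk (0.59 ± 0.11) and Hmgcs1 (0.44 ± 0.08). Stard4 (0.72 ± 0.11) and Elovl6 (0.70 ± 0.09) also responded more in Tregs. Abca1 responded with a deeper fall in Tregs for H16R (-0.52 ± 0.16) and 3x (-0.71 ± 0.16). With WT, Idi1 (-0.37 ± 0.14), Sqle (-0.36 ± 0.11) and Fdps (-0.52 ± 0.11) were lower. The WT count was 5 (1 higher and 4 lower) without the 2 mice that stood apart and 5, 3 and 6 without the mouse of isotype PBS replicate 1, isotype WT replicate 1 or block WT replicate 2. Without the mouse in the model it was 0 in edgeR (7 genes, all lower, at an unadjusted p under 0.05), and the DESeq2 count with the mouse was 10.

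Other genes of lipid metabolism were counted as lists for 3x against PBS under blockade, the comparison with the most members called among those against PBS, in which 34.7% of all genes rose and 38.3% fell. Fatty acid oxidation rose for 9 of 10 genes and fell for 1 (median 0.33), with Cpt1a, which admits fatty acids to mitochondria, at 0.84 and the carnitine carrier Slc25a20 at 0.78. Sterol trafficking and storage rose for 6 of 10 tested genes (0.16), among them the lysosomal sterol carrier Npc1 (0.85) and the cholesterol acyltransferase Soat1 (0.61). Other genes of fatty acid synthesis rose for 7 and fell for 3 of 13 (0.26), with the elongases Elovl1 at 0.90 and Elovl5 at 0.68. The isoprenoid branch rose for 5 and fell for 2 of 9 (0.17), with Ggps1, which makes geranylgeranyl pyrophosphate, at 0.49. Regulators of SREBP and of the liver X receptors rose for 3 and fell for 2 of 9 (0.02), with Rxra, the partner of the liver X receptors, at 1.27 and the sterol-induced ligase Mylip at -0.85. With WT under isotype, where 26% of all genes rose and 26.2% fell, the genes that rose and fell were 5 and 1 of 10 for oxidation, 4 and 3 of 10 for trafficking, 1 and 3 of 9 for the isoprenoid branch and 3 and 3 of 9 for the regulators, and 5 of 13 rose among the other genes of fatty acid synthesis.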

How the data were processed

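RNA from CD25-selected splenic Tregs (32 libraries) and from CD25-depleted Tcons (16 of the same mice) was sequenced as paired ends from stranded poly(A) libraries. Treg libraries are labelled by mouse, and 2 isotype WT libraries that carry the same mouse name are called 3a and 3b. They differed by more than sampling noise (chi-square per gene of 29.0, against 3.79 to 81.6 over the 56 pairs within groups) and were counted as 2 samples, since the study's methods give 4 mice to every group and a sample to each mouse. Per the study's methods, the authors aligned reads to the mouse B38 genome with OSA and quantified genes with RSEM, against a gene model named there as GENCODE. The deposited values are RSEM expected counts, which were rounded to whole numbers, and FPKM, which the authors normalized for length and depth. Deposited tables of the authors' own comparisons hold log2 fold changes and p-values and were not used.

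Here, protein-coding genes with CPM over 0.5 in at least 4 of the fitted libraries and no empty cell were tested with edgeR 4.0.16 (R 4.3.3, TMM, quasi-likelihood) and called at a Benjamini-Hochberg adjusted p under 0.1, the threshold of the study. Treg contrasts came from a model of 8 group means, Treg against Tcon from a model with the mouse as a block, and Tcon contrasts from IL-2 plus antibody. No column was left without a sample. Alternatives were DESeq2 1.42.0, limma 3.58.1 on log2(FPKM + 1), total-count scaling, no filter, empty cells as 0, thinned counts, only the groups compared, a replicate block and leaving out each library; leaving out the 2 libraries (or mice) high in B cell markers was chosen after seeing the data. Fits were tested on simulated counts.

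The mouse block rests on the shared mouse in the labels, and 15 of 16 pairs of libraries deviated together with a correlation over 0.1. Intervals are 95%. Genes given with full statistics were the called members with the largest change, up to 5 in each direction, and Hmgcs1, Idi1, Sqle, Cyp51, Insig1, Srebf1, Srebf2, Scd1, Scd2, Fasn, Fads2, Abca1 and Abcg1, and other members may be named with their values. The members and lists were chosen with earlier results of these data known.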

Additional observations from a re-analysis of the deposited data

Results flagged for a closer look

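In groups of 4 Treg libraries, 18 of 272 tested combinations of gene and group held a library whose gap to its nearest neighbour passed Dixon's 95% limit, where chance gives about 1 in 20 groups, or 13.6. In CPM, Scd1 was 82.7 in isotype PBS replicate 1, 63.8 in block WT replicate 1, 7.81 in block PBS replicate 3 and 10.8 in block 3x replicate 3. The first 2 are the libraries high in B cell markers, and the part of those cells was not tested. Block PBS replicate 3 was low for Mvk (8.71) and Hsd17b7 (6.63). Block 3x replicate 2 was low for Pmvk (24.2) and Stard4 (53.6), and block 3x replicate 3 stood apart for Dhcr7 (34.0). Isotype H16R replicate 3 stood apart for Pmvk (18.7) and replicate 2 for Lss (14.0). Single libraries also stood apart for Fdft1 (32.7, isotype WT replicate 3b), Scap (113, isotype WT replicate 2), Insig1 (93.2, isotype 3x replicate 4), Fasn (269, isotype PBS replicate 4), Fads2 (0.205, isotype PBS replicate 3, and 1.42, block H16R replicate 3) and Abcg1 (96.9, block WT replicate 2).

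Responses to IL-2 differed between antibodies by the interaction term for 7 of 34 genes with WT (2 higher and 5 lower, beside 11.7% and 7.98% of all genes), 12 with H16R (11 and 1, beside 10.6% and 8.47%) and 16 with 3x (13 and 3, beside 20.3% and 18.7%). The WT total is near its background. Block minus isotype, the log2 difference with WT was -0.25 for Srebf1, 5.21 for Scd1 and 0.98 for Abca1. With H16R it was 0.51 for Idi1, 0.48 for Sqle, 0.38 for Cyp51, 4.35 for Scd1 and 0.48 for Scd2. With 3x it was 0.32 for Hmgcs1, 0.41 for Idi1, 0.42 for Sqle, 0.31 for Cyp51, -0.49 for Insig1, 4.31 for Scd1 and 0.37 for Scd2. Without the 2 libraries high in B cell markers the Scd1 differences were 1.73, 2.77 and 2.72.

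Responses also differed between Tregs and Tcons, for 11 genes with WT (beside 12.2% of all genes higher and 9.3% lower), 24 with H16R (24.4% and 21.7%) and 22 with 3x (26.8% and 25.3%). Without the mouse in the model the WT count was 0 in edgeR (7 genes lower at an unadjusted p under 0.05, and 10 called by DESeq2 with the mouse) and the H16R count 13. Treg minus Tcon, the difference with WT was -0.37 for Idi1, -0.36 for Sqle, 0.27 for Insig1, -1.02 for Fads2 and 0.23 for Abcg1. With H16R it was 0.20 for Hmgcs1, -0.31 for Idi1, 0.29 for Cyp51, 0.36 for Insig1, 0.28 for Srebf2, -0.18 for Scd2, -0.13 for Fasn, -1.59 for Fads2, -0.52 for Abca1 and 0.14 for Abcg1. With 3x it was 0.44 for Hmgcs1, 0.34 for Idi1, 0.61 for Cyp51, 0.24 for Insig1, 0.20 for Srebf2, -0.27 for Fasn, -1.29 for Fads2 and -0.71 for Abca1.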

How the results depend on the processing

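No called value changed sign under any alternative run, but scaling by total counts, and limma on FPKM, moved the balance of higher and lower calls in several comparisons: by limma H16R gave 7 and 15 under isotype and 14 and 8 under block, Tregs against Tcons 15 and 15, and Treg minus Tcon responses 8 and 12 (H16R) and 12 and 9 (3x). The counts of called genes that moved by over 1.5 times were block against isotype in PBS Tregs (7), which was 11 without the 2 libraries high in B cell markers and 4 with only the groups compared, and the WT response in Tregs minus Tcons (11), which was 5 without the 2 mice. That WT count was 0, and the H16R count 13 in place of 24, with no replicate block for the mouse (7 genes lower at an unadjusted p under 0.05 for WT). WT against PBS in Tcons (6) was 11 by DESeq2. Numbers did not pair Treg groups (23 of 112 same-number pairs correlated over 0.1), and with a replicate block the counts against PBS stayed at 22, 25 and 22 under isotype and 11, 24 and 26 under block, with 4 gene calls gained and 6 lost in all Treg and Tcon contrasts.

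Leaving out 1 library or mouse gave 17 to 23, 23 to 26 and 21 to 24 calls for WT, H16R and 3x against PBS under isotype, and 9 to 15, 20 to 24 and 25 to 27 under block. Block against isotype ranged over 4 to 10 (PBS), 10 to 16 (WT), 9 to 15 (H16R) and 13 to 19 (3x). Between molecules the ranges were 3 to 8, 17 to 21 and 12 to 13 under isotype and 21 to 27, 27 to 29 and 11 to 17 under block (H16R against WT, 3x against WT, 3x against H16R). H16R against WT under isotype (7) was 3 without isotype WT replicate 2 and 4 without isotype WT replicate 3b or isotype H16R replicate 1. Without 3a or 3b, which share a mouse name, WT against PBS under isotype gave 7 higher and 14 lower or 9 and 13. Block minus isotype responses gave 4 to 9, 7 to 13 and 10 to 19, Tregs against Tcons 27 to 29, and Treg minus Tcon responses 3 to 12, 17 to 24 and 18 to 24. In Tcons, WT gave 3 to 11 (11 without isotype WT replicate 2, 3 without block PBS replicate 1), H16R 4 to 11 (4 without isotype H16R replicate 1), 3x 2 to 8 and blockade 4 to 10. Without isotype WT replicate 1, 3x gave 8 and blockade 10. 3x gave 7 without isotype WT replicate 2, and 2 without either isotype 3x library, either block PBS library or block 3x replicate 2. The causes were not tested, and 2 mice per Tcon group and the 5 to 21 counts of Fads2 per isotype Treg library limit what can be seen.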
